A study of Mus musculus with 6 samples.

Results

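The proteasome genes of primary mouse dermal fibroblasts were followed through loss of YAP and TAZ and through addition of a STING inhibitor. They were taken as every row of the expression table whose symbol is Psma to Psmg followed by a number, with pseudogene symbols left out, which gave 48 of the 13706 rows. Psmb8, Psmb9 and Psmb10 (the inducible catalytic subunits) and Psme1 and Psme2 (the subunits of the inducible activator PA28) form a group of 5, called the immune genes here. The other 43 rows comprise 41 genes for proteasome subunits, assembly chaperones and regulators, and 2 rows that the symbol rule also caught. One of those is Psmc3ip, a meiotic recombination factor that is no proteasome subunit. The other is Psme2b, a single-exon near copy of Psme2.

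Control cultures carried floxed Yap1 and Wwtr1 (the gene for TAZ) and no Cre. Knockout cultures, YTcKO in the labels, carried the same floxed alleles with R26-CAG-CreER, a ubiquitously driven Cre recombinase that tamoxifen activates. Cultures of the third group had the knockout genotype and also received 1 μM H-151, an inhibitor of STING, the adaptor through which cells respond to DNA in the cytosol. Every culture, controls included, was given 1 μM 4OH-Tamoxifen for 72 h, and each group had 2 libraries. Because the control cells had no Cre, active Cre and loss of YAP and TAZ cannot be told apart, and no control cells with H-151 were among the libraries used here. Nothing in the labels tells if both libraries of a group are from different mice or cultures. The p-values therefore reflect library-to-library spread, which may be technical. In such bulk samples a change in RNA per cell and a change in the mix of cells cannot be told apart.

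Libraries were sequenced from the 3′ ends of transcripts and held 12444986 to 15308100 reads in listed genes, and 1 read was worth 0.0625 to 0.0871 of the unit used below. That unit, scaled CPM, is CPM (reads relative to library size) after the authors' scaling between libraries. Changes on the log2 scale are differences of log2(scaled CPM + 1), which understates the change of low genes. Values given as folds are ratios of group means of scaled CPM, without the added 1. A gene was called changed at a Benjamini-Hochberg adjusted p under 0.05 in limma over 13648 genes. Limma draws each gene's variance toward that of genes at a similar level. Its SEs, intervals and p-values are therefore not that gene's own spread alone. Wwtr1 stood at 213 and 218 scaled CPM in control, 4.79 and 5.03 in knockout and 3.07 and 4.00 in H-151-treated knockout libraries. Yap1 stood at 122 and 128, then 66.4 and 68.3, then 45.3 and 42.4. The labels do not name the deleted exons, and 3′ reads outside them would not measure the deletion. All 10 fibroblast markers examined were present in every library. So were 18 of 20 markers of blood-derived cells, whose summed level was 1515 and 1273 in control, 1576 and 1596 in knockout, and 4048 and 3282 in H-151-treated knockout libraries.

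The proteasome degrades proteins tagged with ubiquitin. Its core particle is a barrel in which rings of alpha subunits enclose rings of beta subunits, and Psmb5, Psmb6 and Psmb7 encode the beta subunits that cut proteins. The 19S particle, with a base of ATPases (Psmc genes) and non-ATPase subunits (most Psmd genes), recognises and unfolds substrates. In cells exposed to interferon, Psmb8, Psmb9 and Psmb10 are incorporated in place of Psmb5, Psmb6 and Psmb7, which yields the immunoproteasome. It favours peptides that fit MHC class I molecules, and PA28 opens its gate in place of the 19S particle.

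The 5 immune genes lie in 3 places in the mouse genome (GRCm38, GENCODE M21). Psmb9 (chr17:34181987-34187764, minus strand) and Psmb8 (chr17:34197721-34201454, plus strand) flank Tap1 (chr17:34187553-34197225, plus strand), whose product carries peptides into the endoplasmic reticulum. Psme1 (chr14:55578123-55581529, plus strand) and Psme2 (chr14:55587441-55591113, minus strand) are neighbours, and Psmb10 (chr8:105935735-105938444, minus strand) stands alone. Start-site windows of 300 bases, 250 before and 50 after the start, came from RefSeq on GRCm38.p6 for 41 of the 48 genes. The windows of Psmb8, Psmb9 and Psme1 are shown for the immune genes and that of Psmb5 for the constitutive ones, because Psmb5 is the subunit that Psmb8 replaces. Each is written 5′ to 3′ on the gene's strand, at chr17:34197945-34198244, chr17:34187281-34187580, chr14:55578244-55578543 and chr14:54617946-54618245. Capitals mark a match, on either strand, to the interferon-response core GAAANNGAA, the gamma-activated sequence TTCNNNGAA or the antioxidant-response element TGACNNNGC.
Psmb8: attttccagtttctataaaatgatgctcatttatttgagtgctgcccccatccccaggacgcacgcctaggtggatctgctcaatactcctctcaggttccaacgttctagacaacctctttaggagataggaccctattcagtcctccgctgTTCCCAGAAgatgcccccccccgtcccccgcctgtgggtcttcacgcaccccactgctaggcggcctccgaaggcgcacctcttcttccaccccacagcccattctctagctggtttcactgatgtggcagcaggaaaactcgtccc
Psmb9: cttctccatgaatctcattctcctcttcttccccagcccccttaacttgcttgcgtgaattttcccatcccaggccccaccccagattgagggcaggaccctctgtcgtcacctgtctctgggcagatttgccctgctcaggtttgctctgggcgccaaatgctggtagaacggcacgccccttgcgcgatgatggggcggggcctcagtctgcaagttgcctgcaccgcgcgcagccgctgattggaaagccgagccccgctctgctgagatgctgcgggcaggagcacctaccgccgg
Psme1: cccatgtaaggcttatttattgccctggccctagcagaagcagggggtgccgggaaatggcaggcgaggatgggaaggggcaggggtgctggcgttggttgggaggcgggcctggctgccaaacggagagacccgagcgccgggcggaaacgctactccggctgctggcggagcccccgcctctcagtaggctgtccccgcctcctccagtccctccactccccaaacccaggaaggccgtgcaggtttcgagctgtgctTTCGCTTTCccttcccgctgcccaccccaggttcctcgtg
Psmb5: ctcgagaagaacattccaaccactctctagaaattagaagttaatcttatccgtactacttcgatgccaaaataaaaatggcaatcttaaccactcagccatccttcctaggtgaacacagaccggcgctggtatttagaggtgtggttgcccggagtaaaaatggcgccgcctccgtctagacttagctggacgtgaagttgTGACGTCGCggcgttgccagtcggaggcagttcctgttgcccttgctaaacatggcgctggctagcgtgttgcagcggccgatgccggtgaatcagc

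The Psmb8 window held a match to the gamma-activated sequence, beginning 97 bases before the RefSeq start. Psme1 was the one immune gene with a match to the interferon-response core, in the bases after its RefSeq start. By the GENCODE positions above, the windows of Psmb8, Psmb9 and Psme1 lie wholly inside their genes. For these genes the bases before the GENCODE start were not searched, so a missing match covers the RefSeq window only. None of the 3 motifs occurred in the windows of Psmb9, Psmb10 or Psme2. The Psmb9 window shares 275 bases with that of Tap1, which is read in the opposite direction. By motif, GAAANNGAA was found in 1 of 5 immune genes, 6 of 36 other rows with a window and 8.74% of tested genes, and TTCNNNGAA in 1 of 5, 2 of 36 and 8.16%. The Psmb5 window held TGACNNNGC 47 bases before the start. That motif was in the windows of 6 of 36 other rows, Psmb5 included, 0 of 5 immune genes and 16.8% of tested genes. The NF-Y box CCAAT, searched as well and not capitalised, was in 1 of 5 immune genes, 13 of 36 other rows and 42.9% of tested genes. No 2 matches of the first 3 motifs overlapped in any of these windows. They are matches of letters only, and no binding was measured.

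Knockout against control asks how the transcriptome changed once Cre had been activated. All 5 immune genes rose, by a median of 2.58 on the log2 scale, whereas the 43 other rows had a median of 0.05 and all tested genes one of -0.01. The test called 32.4% of all tested genes, 18.2% higher and 14.2% lower. Under every alternative processing and without any single library, the 5 immune genes stayed called.

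Psmb9 stood at 8.55 and 6.05 scaled CPM in control libraries, 94.6 and 87.1 in knockout libraries and 10.1 and 10.3 with H-151. Both knockout libraries were far above the other 4. The ratio of the knockout to the control mean was 12.4, with a change of 3.48 ± 0.14 (SE, n = 2 against 2, limma adjusted p = 4.78e-12).

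Psmb8 was at 20.9 and 17.3 in control, 125 and 139 in knockout and 23.0 and 19.7 with H-151. It rose 6.91-fold (2.73 ± 0.11 on the log2 scale, limma adjusted p = 5.35e-12). Psmb10 was at 26.6 and 24.6 in control, 152 and 165 in knockout and 35.9 and 30.1 with H-151. It rose 6.19-fold (2.58 ± 0.10, limma adjusted p = 2.11e-12). For both genes the knockout libraries stood clear of the other 4, which lay close together.

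Of the PA28 subunits, Psme1 was at 57.8 and 55.7 in control, 153 and 144 in knockout and 62.1 and 63.0 with H-151. Psme2 was at 34.8 and 33.1 in control, 84.4 and 92.7 in knockout and 37.6 and 29.1 with H-151. Each rose 2.61-fold, with changes of 1.37 ± 0.07 for Psme1 (limma adjusted p = 2.55e-10) and 1.35 ± 0.11 for Psme2 (adjusted p = 4.29e-08). The 95% intervals of these changes were 1.21 to 1.53 and 1.13 to 1.58. They lay below those of the 3 catalytic genes, of which the lowest was 2.38 to 2.79 for Psmb10, although the differences between genes were not tested.

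**Figure D1:**
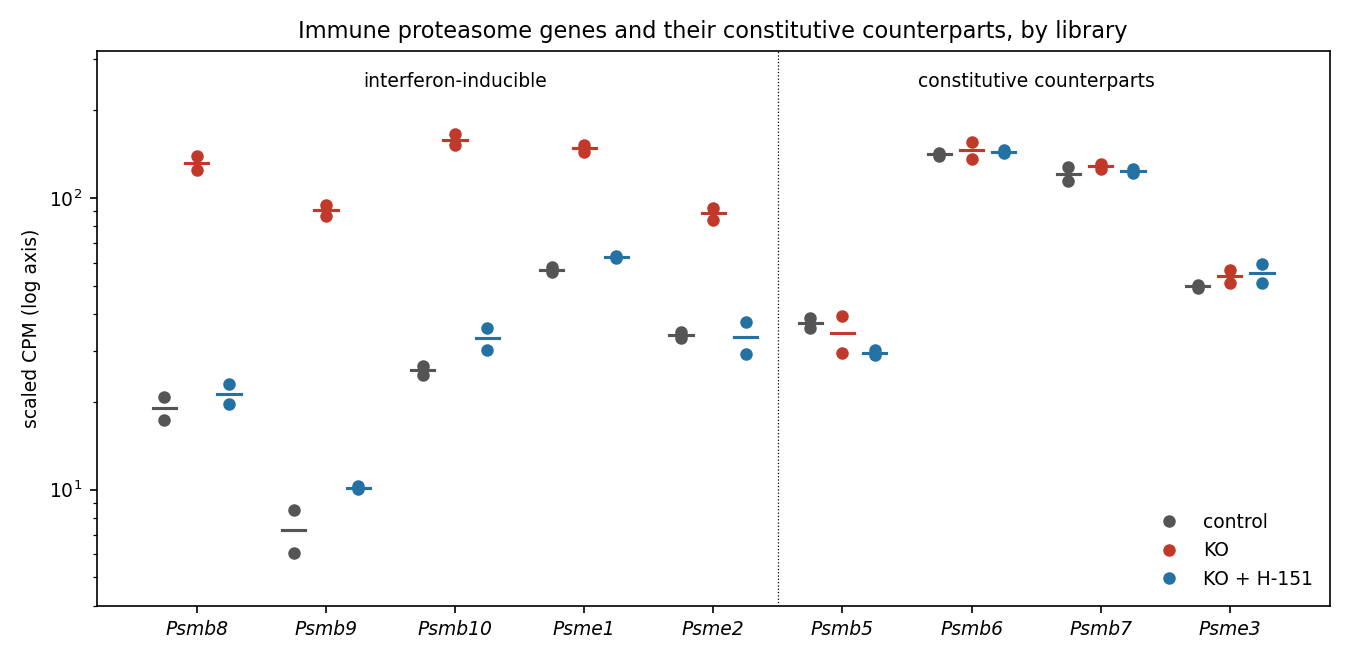
Level of the 5 immune genes and of Psmb5, Psmb6, Psmb7 and Psme3 in each library, in scaled CPM on a log axis. Each point is a library and each short line the mean of the 2 libraries of a group. For the immune genes the knockout points stand above both other groups, and of the constitutive genes Psmb5 lies below control in both H-151 libraries, while Psmb6 and Psmb7 overlap in all groups.

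The constitutive catalytic genes did not pass the test. Psmb5 was at 35.9 and 38.7 in control and 29.4 and 39.5 in knockout, a change of -0.12 with a 95% interval of -0.38 to 0.13. Psmb6 was at 142 and 139.6 in control and 137 and 156 in knockout, a change of 0.05 with an interval of -0.11 to 0.20. Psmb7 was at 128 and 114 in control and 131 and 126 in knockout, a change of 0.08 with an interval of -0.07 to 0.24. In all 3 genes the knockout libraries overlapped the control libraries. Psme3, which encodes the nuclear activator PA28 gamma, was at 50.4 and 49.2 in control and 56.9 and 50.9 in knockout, a change of 0.11 with an interval of -0.09 to 0.31.

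Within each library each immune catalytic gene was then set against the constitutive gene it replaces. Psme1 and Psme2 were set against Psme3, which serves as a reference gene only. Only changes of these ratios are read, since reads of different genes are not calibrated to each other. The log2 ratio of Psmb8 to Psmb5 was -0.78 and -1.16 in control libraries, 2.09 and 1.81 in knockout libraries and -0.33 and -0.61 with H-151. For Psmb9 to Psmb6 it moved from a mean of -4.29 in control to -0.68 in knockout, a difference of 3.61 ± 0.40 (SD). For Psmb10 to Psmb7 it moved from -2.24 to 0.30, a difference of 2.55 ± 0.13 (SD). Psme1 to Psme3 shifted by 1.27 ± 0.06 (SD) and Psme2 to Psme3 by 1.27 ± 0.21 (SD). In each of the 5 pairs the knockout libraries did not overlap the control libraries. The exact two-sided permutation p was 0.333 for each, the smallest that 2 against 2 libraries can give. With H-151 the mean ratios were -0.47, -3.83 and -1.91 for the 3 catalytic pairs, each above its control libraries. Against control, Psmb5 changed by -0.33 (limma adjusted p = 0.0596) and Psmb8 by 0.16 (adjusted p = 0.357), so the lower Psmb5 level made up the larger share of that pair's difference of 0.50.

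**Figure D2:**
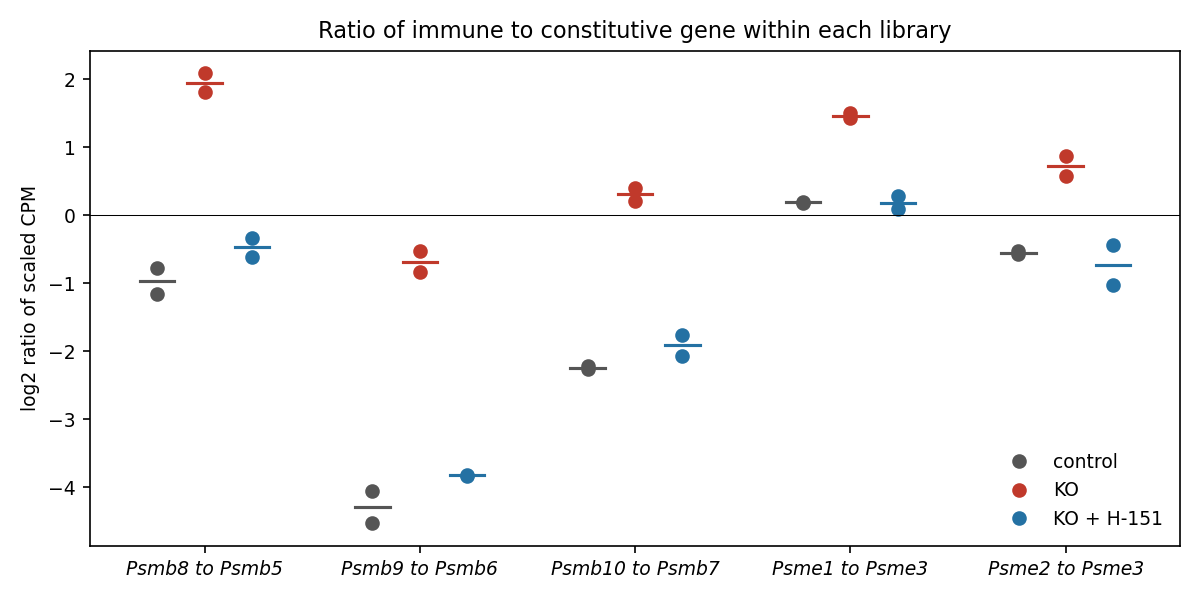
Log2 ratio of scaled CPM within each library, for 5 pairs. Immune catalytic genes are set against the constitutive genes they replace, and Psme1 and Psme2 against Psme3 as a reference. Points are libraries and short lines group means. Knockout libraries lie above control and H-151-treated libraries in every pair, and for Psme1 and Psme2 against Psme3 the other groups overlap.

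Beyond the immune genes, 10 of the 43 other rows were called higher in knockout and 1 lower, against 18.2% and 14.2% of all tested genes. The groups did not overlap in 28 of 43 rows, against 66.9% of tested genes. Apart from Psme2b, these changes ran from -0.42 to 0.53 on the log2 scale. Their direction rests on the scaling. When libraries were scaled by total count the median of all genes moved to -0.16. In that run 3 of the 43 rows were called higher and 11 lower, against 1726 and 4053 of all 13648 tested genes. Relative to the median of all genes, the median of the 43 rows was 0.06 as deposited, 0.04 with total-count scaling and 0.0029 with quantile normalization.

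In the alpha ring Psma2, Psma3, Psma4 and Psma5 rose among 7 genes, and with total-count scaling or quantile normalization 2 were called higher and 1 lower. The family median was 0.26 above that of all genes as deposited, 0.25 with total-count scaling and 0.20 with quantile normalization. Psma5 was at 35.4 and 35.5 scaled CPM in control, 49.2 and 53.8 in knockout and 33.0 and 38.3 with H-151. It rose 1.45-fold (0.53 ± 0.10, limma adjusted p = 0.000499). Psma3 was at 51.3 and 44.6 in control, 63.7 and 70.0 in knockout and 45.9 and 43.3 with H-151, a rise of 1.39-fold (0.47 ± 0.09, limma adjusted p = 0.000773). In both genes the knockout libraries exceeded the other 4. These 2 calls, with that of Psme2b, were the only ones among the 43 rows that held under every alternative run, Psme2b not having been tested where a mean of 10 was required.

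Psma2 (0.28 ± 0.08, limma adjusted p = 0.00986) and Psma4 (0.25 ± 0.07, limma adjusted p = 0.00909) rose less. Their calls were lost without control library 2 (adjusted p = 0.118 and 0.101), without knockout library 2 (0.164 and 0.118) and with total-count scaling (0.237 and 0.306). Psma7 was at 391 and 355 in control and 411 and 413 in knockout, a change of 0.14 that was not called (adjusted p = 0.133). Psma3 overlaps 3110056K07Rik on the opposite strand at its 3′ end. That gene was at 5.41 and 3.53 in control and 5.49 and 5.79 in knockout libraries, and because the sources used here do not state whether counting used strand, reads of such partners cannot be told apart.

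In the beta ring 1 of 7 genes was called, Psmb4, a non-catalytic subunit. It was at 367 and 349 in control, 421 and 419 in knockout and 334 and 301 with H-151, a rise of 0.23 ± 0.07 (limma adjusted p = 0.0152). The call was lost without control library 2 (adjusted p = 0.133), knockout library 1 (0.111) or knockout library 2 (0.101), and its change was 0.07 with total-count scaling. Psmb1, another non-catalytic subunit, was at 248 and 224 in control and 243 and 253 in knockout, so the groups overlapped.

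Of the 6 ATPases of the 19S base, limma called 0, and 0 had an unadjusted p under 0.05. Their changes ran from -0.17 to 0.12. Among all 13648 tested genes, 32.4% were called and 5694 had an unadjusted p under 0.05. Psmc3 was at 273 and 276 in control and 282 and 269 in knockout, so the groups overlapped. With total-count scaling 2 of the 6 were called lower, and their median was then 0.01 above that of all genes.

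Of the 11 non-ATPase subunits of the 19S particle, Psmd7 and Psmd8 rose. Psmd8, a lid subunit, was at 433 and 426 in control, 521 and 539 in knockout and 468 and 455 with H-151, a rise of 0.30 ± 0.06 (limma adjusted p = 0.00119). This call held without any single library but not with total-count scaling (0.14, adjusted p = 0.0823) or quantile normalization (0.13, adjusted p = 0.122). Psmd7, also of the lid, was at 319 and 343 in control and 394 and 404 in knockout (0.27 ± 0.07, limma adjusted p = 0.0054). Its call was lost without control library 1 (adjusted p = 0.0773) or knockout library 2 (0.0759). Psmd2, the ubiquitin-receptor scaffold of the base, was at 235 and 242 in control and 218 and 227 in knockout, a change of -0.10 that was not called.

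Among the assembly chaperones 1 gene was called lower and 1 higher, and neither call held under every alternative. Psmd5, a chaperone of the ATPase base, was the one row called lower, at 52.6 and 54.3 in control, 34.0 and 46.2 in knockout and 44.8 and 44.4 with H-151 (-0.42 ± 0.11, limma adjusted p = 0.00923). Knockout library 1 was the lowest of the 6, and without it the change was -0.21 (adjusted p = 0.191). Without control library 2 the adjusted p was 0.0672. Psmd9 and Psmd10, the other base chaperones, changed by -0.03 and 0.15 and were not called. Of the core-particle chaperones Psmg1 to Psmg4, only Psmg4 was called, at 26.1 and 25.0 in control and 32.4 and 32.1 in knockout (0.32 ± 0.10, limma adjusted p = 0.02). It was not called with total-count scaling (limma adjusted p = 0.194), quantile normalization (limma adjusted p = 0.0646) or DESeq2 (adjusted p = 0.0696). Leaving out any 1 of these 4 libraries ended that call, with adjusted p of 0.0586 to 0.122.

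Among the remaining regulators, Psme4, which encodes the activator PA200, was at 126 and 137 in control, 157 and 153 in knockout and 143 and 138 with H-151. It rose by 0.23 ± 0.07 (limma adjusted p = 0.0167), a call lost without control library 1 (adjusted p = 0.172), knockout library 1 (0.123) or knockout library 2 (0.0774). Psmf1, which encodes the inhibitor PI31, was at 42.3 and 43.9 in control and 47.8 and 50.2 in knockout, a change of 0.18 that was not called (adjusted p = 0.121).

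Psme2b went from 0.783 and 1.58 scaled CPM (11 and 22 reads) in control to 7.40 and 6.47 (85 and 76 reads) in knockout, and was at 1.57 and 0.813 with H-151. Its change was 1.88 ± 0.24 (limma adjusted p = 9.38e-06). The row matches transcript Psme2-208 at 789 of 794 aligned bases (99.4%), so reads may be shared between the copies and its value is uncertain. It also lies inside Gm12185, a gene on the same strand, which was listed at 0 in both control libraries and at 18.7 and 19.8 in knockout libraries. Psmc3ip was at 3.49 and 2.74 in control and 3.40 and 2.72 in knockout.

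**Figure D3:**
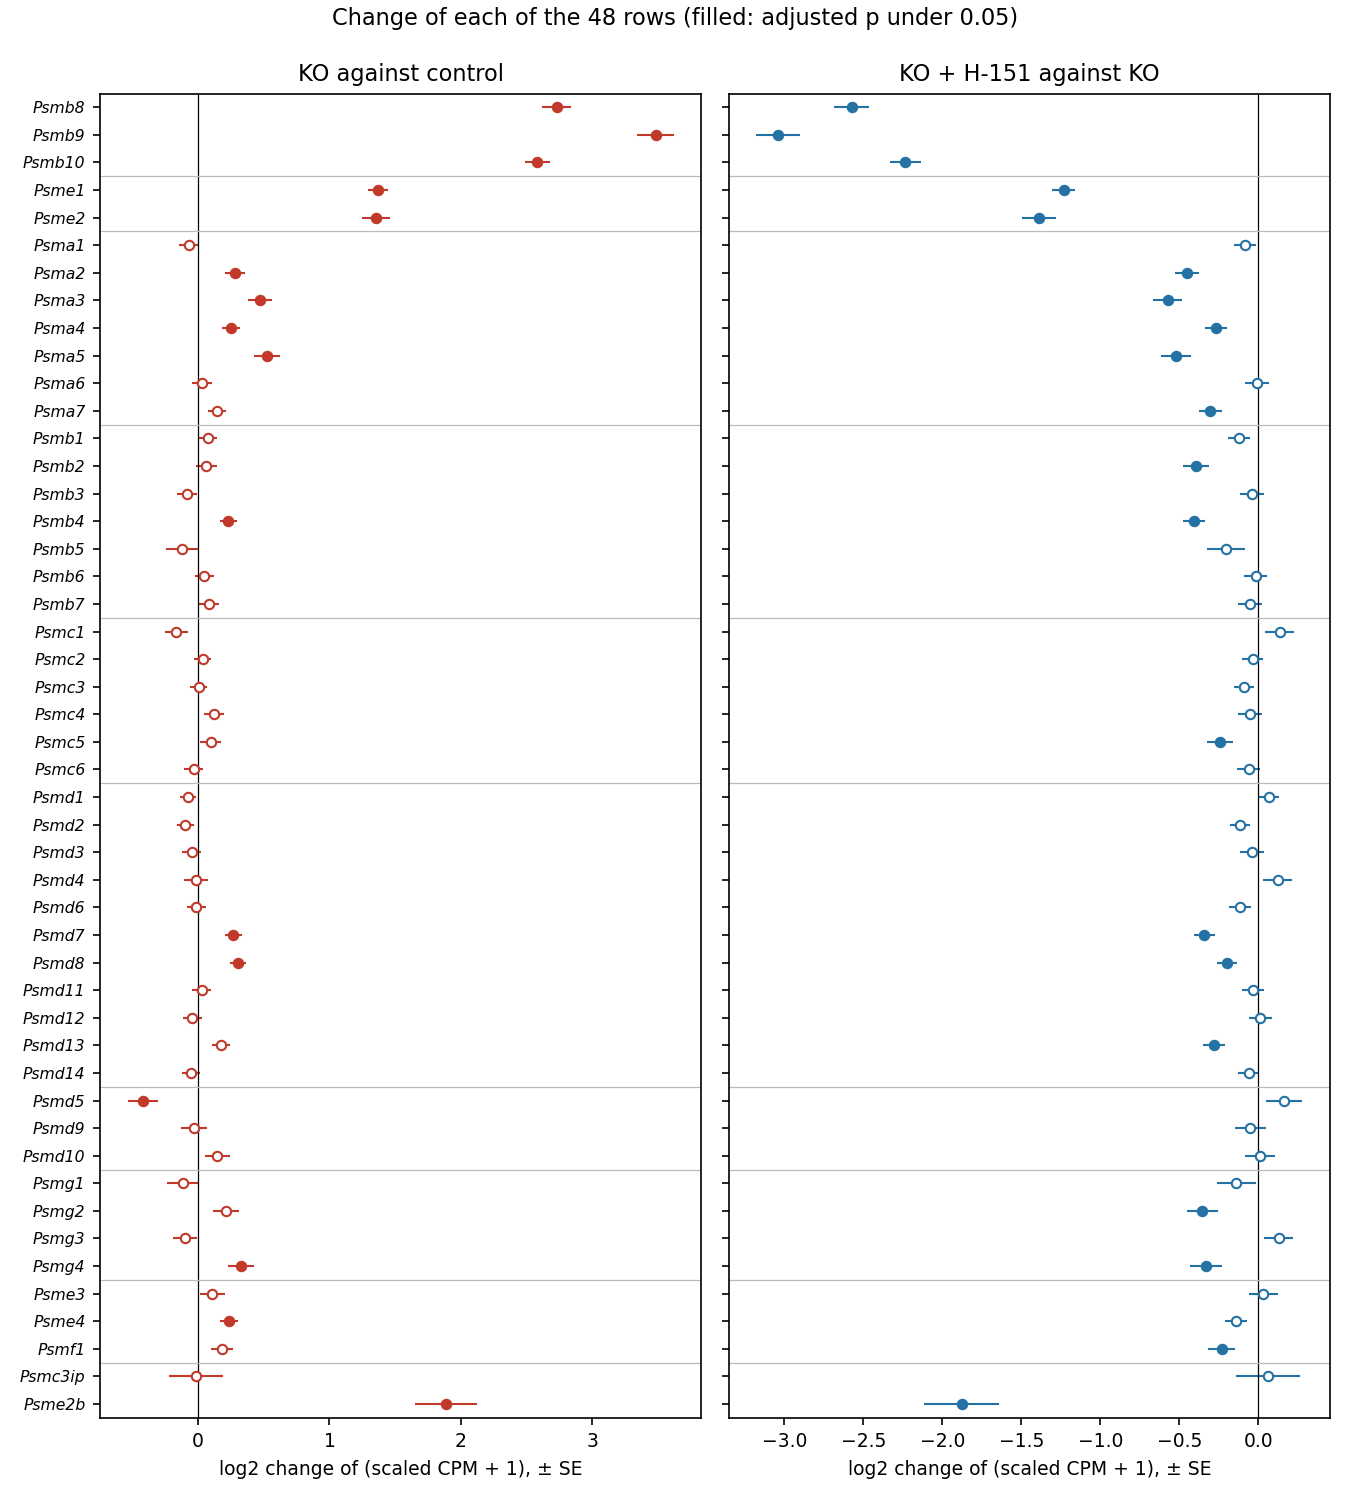
Log2 change of each of the 48 rows in knockout against control and in H-151 against knockout, with its SE on the x axis and a row for each gene. Filled points passed an adjusted p of 0.05. In knockout against control the 5 immune genes and Psme2b stand apart from rows that run from -0.42 to 0.53, and in H-151 against knockout the same 6 rows have the lowest values.

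Summed over genes, the 5 immune genes held 149 and 137 scaled CPM in control, 608 and 628 in knockout and 169 and 152 with H-151. The 41 other proteasome genes held 6212 and 6070, then 6500.1 and 6587, then 5847 and 5957. The knockout libraries were the highest in both sums on the deposited scale. As parts of 1000000 of each column's total, the immune sum was still highest in knockout (561 and 581, against 155 and 141 in control). The other sum was then lowest in knockout, at 5999 and 6093, compared with 6459 and 6257 in control and 6117 and 6223 with H-151.

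H-151-treated knockout against untreated knockout asks what differed with the STING inhibitor in cells with the same genotype. Yap1 and Wwtr1 were themselves called lower with H-151, by -0.61 and -0.39 (limma adjusted p = 8.35e-06 and 0.0258). Whether these lower levels have a part in the changes below was not tested. All 5 immune genes fell, by a median of -2.23, whereas the 43 other rows had a median of -0.09 and all tested genes one of 0.02. Of all tested genes 40.8% were called, 19.4% higher and 21.4% lower. Both comparisons use the same knockout libraries, so a high value there raises the first change and lowers the second, and the values are only set side by side.

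The changes of the catalytic genes were -3.04 ± 0.14 for Psmb9 (limma adjusted p = 2.76e-11), -2.57 ± 0.11 for Psmb8 (adjusted p = 1.22e-11) and -2.23 ± 0.10 for Psmb10 (adjusted p = 1.34e-11). Those of the PA28 genes were -1.39 ± 0.11 for Psme2 (limma adjusted p = 2.59e-08) and -1.23 ± 0.07 for Psme1 (adjusted p = 9.21e-10). As folds, the knockout means exceeded the H-151 means 8.94-fold for Psmb9, 6.18-fold for Psmb8, 4.80-fold for Psmb10, 2.65-fold for Psme2 and 2.37-fold for Psme1. The catalytic genes again changed more than the PA28 genes. These 5 calls held under every alternative.

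Of the 43 other rows 15 were called lower and 0 higher in limma, against 21.4% and 19.4% of tested genes. With total-count scaling 6 were called in each direction, against 4767 of all 13648 tested genes higher and 1930 lower. The median of all genes was then 0.18, and the median of the 43 rows stood 0.09 below it, compared with 0.11 below as deposited and 0.0059 below with quantile normalization. The groups did not overlap in 24 of 43 rows, against 69.2% of tested genes.

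In the alpha ring 5 of 7 genes were called lower, or 3 with total-count scaling or quantile normalization, with a family median 0.32 below that of all genes as deposited, 0.30 with total-count scaling and 0.16 with quantile normalization. Psma3 (-0.57 ± 0.09, limma adjusted p = 0.000102), Psma5 (-0.52 ± 0.10, adjusted p = 0.000429) and Psma2 (-0.45 ± 0.08, adjusted p = 0.000187) fell most. These 3 held under every alternative, together with Psmb2 and Psme2b. Psma7 fell by 0.30 ± 0.07 (limma adjusted p = 0.00258) and was at 351 and 317 with H-151, below both knockout libraries. Its call was lost with total-count scaling (adjusted p = 0.158). Psma4 fell by 0.27 ± 0.07 (limma adjusted p = 0.00523), a call lost without knockout library 2 (adjusted p = 0.0809).

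In the beta ring Psmb4 and Psmb2 fell, both non-catalytic subunits. Psmb4 fell by 0.41 ± 0.07 (limma adjusted p = 0.000154). Psmb2 was at 59.2 and 57.8 in control, 61.0 and 61.3 in knockout and 48.2 and 44.3 with H-151, a change of -0.40 ± 0.08 (limma adjusted p = 0.00102). Between control and knockout Psmb2 was not called (0.06, 95% interval -0.11 to 0.24). Psmb5 was at 28.9 and 30.02 with H-151, Psmb6 at 142 and 146, and Psmb7 at 122 and 126, and none of these 3 was called against knockout. Without knockout library 1, Psmb5 was called lower (-0.41, adjusted p = 0.0233).

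In the 19S particle the non-ATPase subunits Psmd7 (-0.34 ± 0.07, limma adjusted p = 0.000647), Psmd13 (-0.28 ± 0.07, adjusted p = 0.00384) and Psmd8 (-0.20 ± 0.06, adjusted p = 0.0175) fell. Of the 6 ATPases, Psmc5 fell (-0.24 ± 0.08, limma adjusted p = 0.0247). Psmd7 kept its call without any single library. Without knockout library 1 the calls of Psmd13, Psmc5 and Psmd8 were lost (adjusted p = 0.065, 0.101 and 0.067). Without knockout library 2, Psmc5 and Psmd8 had adjusted p of 0.144 and 0.143, and without H-151 library 2 Psmc5 had 0.165. None of these 4 genes kept its call with total-count scaling.

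Among the chaperones Psmg2 (-0.35 ± 0.10, limma adjusted p = 0.00801) and Psmg4 (-0.33 ± 0.10, adjusted p = 0.0141) fell. Psmg4 was at 25.5 and 25.3 with H-151, between its control libraries. Without knockout library 1 both calls were lost (adjusted p = 0.138 and 0.0758), and without knockout library 2 that of Psmg4 (0.0661). Psmf1 fell by 0.23 ± 0.08 (limma adjusted p = 0.0411) to 41.4 and 41.8, and leaving out any 1 of the 4 libraries gave it an adjusted p of 0.0765 to 0.197. Psmg1, Psmg3, Psmd5, Psmd9, Psmd10, Psme3 and Psme4 were not called.

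**Figure D4:**
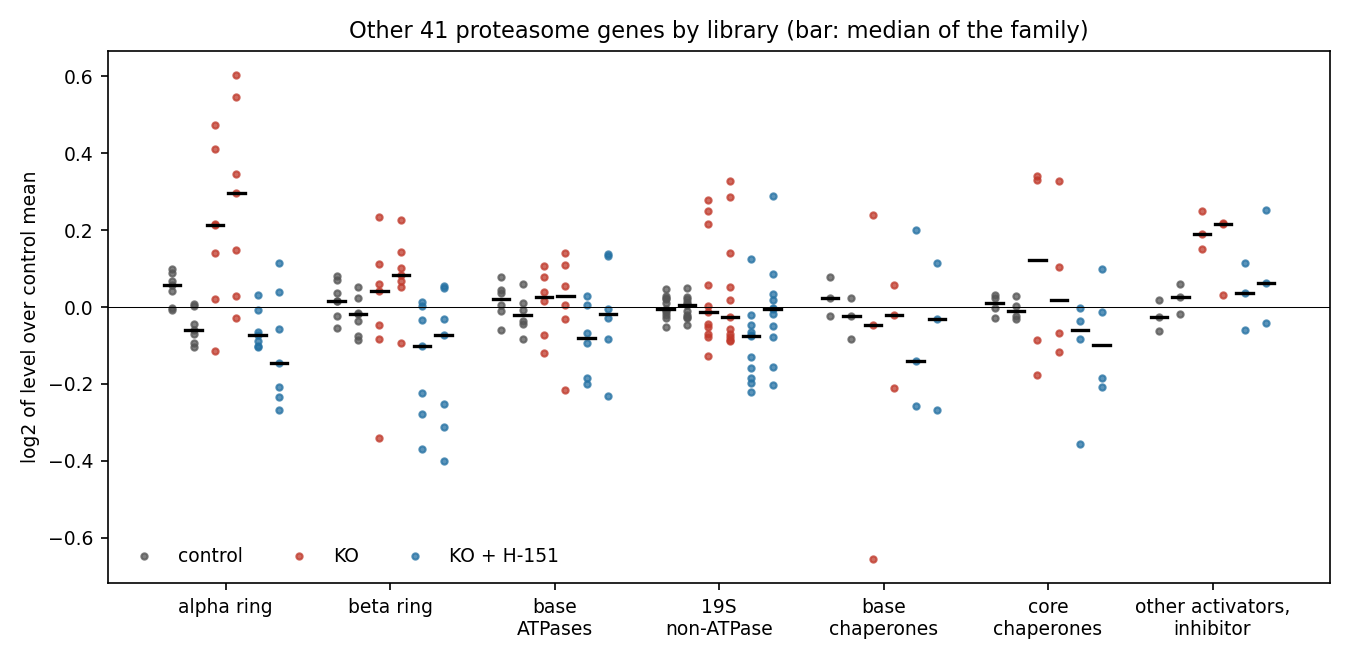
Log2 of the level over the control mean for the 41 other proteasome genes, by family and library, on the deposited scale. Each point is a gene in a library and each bar the family's median. The alpha ring has the highest knockout medians of the ring and 19S families, and points of the base ATPases lie about 0 in all 6 libraries.

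H-151-treated knockout against control compares both ends of the series directly, and 22.9% of tested genes were called, 11.5% higher and 11.4% lower. Psmb9 (0.44 ± 0.14, limma adjusted p = 0.0296) and Psmb10 (0.35 ± 0.10, limma adjusted p = 0.0147) were called higher with H-151 than in control. Neither call was stable. Without control library 2 the adjusted p was 0.336 for Psmb9 and 0.127 for Psmb10. Psmb9 also lost its call without H-151 library 2 (adjusted p = 0.0545) and Psmb10 without H-151 library 1 (adjusted p = 0.123). Psmb8 (0.16, 95% interval -0.08 to 0.39), Psme1 (0.14, -0.02 to 0.29) and Psme2 (-0.04, -0.27 to 0.19) were not called.

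Among the 43 other rows 0 were called higher and 2 lower, Psmb2 (-0.33 ± 0.08, limma adjusted p = 0.00722) and Psmd2 (-0.21 ± 0.06, adjusted p = 0.0238). Psmd2 was at 204 and 207 with H-151. Psmb2 lost its call without control library 1 (adjusted p = 0.06). Psmd2 lost it without control library 1 (0.0746), control library 2 (0.16) or H-151 library 1 (0.0535). The median of the 43 rows was -0.05, and the groups did not overlap in 21 of them, against 59% of tested genes. Psma3 and Psma5, which had risen in knockout, changed by -0.10 and 0.01.

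Genes that work with the proteasome but lie outside the symbol rule were examined as a list of 33 symbols, of which 28 were in the table. In knockout against control 4 rose and 2 fell, against 18.2% and 14.2% of all tested genes, with a median of -0.02. In H-151 against knockout 3 rose and 7 fell, against 19.4% and 21.4%, with a median of -0.03. With total-count scaling the first split became 1 higher and 12 lower and the second 7 higher and 2 lower. All tested genes then gave 1726 higher and 4053 lower in the first comparison and 4767 and 1930 in the second. Ecpas, an adaptor that binds the 26S proteasome, was at 53.2 and 61.5 in control, 117 and 111 in knockout and 65.9 and 60.4 with H-151. It rose by 0.98 ± 0.09 in knockout (limma adjusted p = 1.34e-07) and fell by 0.84 ± 0.09 with H-151 (adjusted p = 7.05e-07).

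Pomp, the maturation factor of the core particle, was at 378 and 305 in control, 442 and 455 in knockout and 401 and 319 with H-151. Its rise of 0.40 ± 0.10 (limma adjusted p = 0.00604) was lost without control library 2 (adjusted p = 0.133), knockout library 1 (0.066) or knockout library 2 (0.0952). Its change of -0.32 ± 0.10 with H-151 (limma adjusted p = 0.0175) was lost without H-151 library 2 (0.176), knockout library 1 (0.105) or knockout library 2 (0.15). Zfand2a, a stress-induced proteasome-binding protein, was lower in knockout and higher with H-151, at 30.5 and 28.5 in control, 22.03 and 22.3 in knockout and 36.1 and 36.4 with H-151. Rps27a, which encodes ubiquitin fused to a ribosomal protein, was at 195 and 165, then 195 and 208, then 139 and 109. It fell by 0.71 ± 0.10 with H-151 (limma adjusted p = 2.96e-05).

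A second list held 14 genes of peptide supply for MHC class I, some of which were already known to rise in these libraries, so it is not independent evidence. In knockout 11 rose and 0 fell, against 18.2% and 14.2% of all tested genes, with a median of 1.02. With H-151 0 rose and 11 fell, against 19.4% and 21.4%, with a median of -0.73. Tap1 was at 25.1 and 25.0 in control, 229 and 229 in knockout and 30.2 and 26.5 with H-151, so the genes on both sides of the shared start region rose, Tap1 by 3.14 and Psmb9 by 3.48. Tap2, next to Psmb8, was at 38.4 and 40.6, then 187 and 151.3, then 29.5 and 47.7. Irf1, a transcription factor known to bind interferon-response elements, was at 32.9 and 31.3, then 991 and 958, then 44.4 and 39.1. B2m, the light chain of MHC class I, was at 1742 and 1492, then 3035 and 2949, then 1987 and 2243.

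Blood-derived cells express immunoproteasome genes, so their markers are set beside the result. In knockout against control 4 of the 18 markers rose and 3 fell, against 18.2% and 14.2% of all tested genes. Ptprc, Fcgr1, Fcer1g and C1qc rose, and Cd14, Coro1a and Csf1r fell. In H-151 against knockout 17 rose and 1, Fcgr1, fell, against 19.4% and 21.4%. In H-151 against control 16 rose and 0 fell, against 11.5% and 11.4%. Psmb9 and Psmb10 were called higher in that comparison too, though these calls were not stable. Tyrobp, an adaptor of myeloid receptors, was at 39.9 and 38.0 in control, 43.8 and 41.5 in knockout and 117 and 111 with H-151. Csf1r, the macrophage growth factor receptor, was at 35.9 and 33.7, then 24.6 and 25.5, then 76.5 and 72.9. The immune proteasome genes were highest in the knockout libraries. The marker sum, of which Lyz2 is the largest part, was highest with H-151. The part of these cells in the changes was not tested. Emc9, which overlaps the 3′ end of Psme1 on the opposite strand, was at 11.3 and 9.15 in control, 9.58 and 6.05 in knockout and 9.54 and 9.88 with H-151, and was not called. Psmb8 and Psmb10 overlap Gm20496 and Gm16156 in the same way, which are not in the expression table. Psmb7, used in the ratio of Psmb10 to Psmb7, overlaps Nek6 on the opposite strand at its 3′ end. Nek6 was at 125 and 104 in control, 94.6 and 102 in knockout and 103 and 97.5 with H-151. Psmc3 overlaps Slc39a13 likewise, which was at 79.9 and 80.9, then 72.9 and 77.6, then 65.3 and 72.0. As for Psma3, reads of these partners cannot be told apart.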

How the data were processed

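RNA from primary mouse dermal fibroblasts was made into QuantSeq 3′ libraries. The submitters' processing notes name STAR 2.5.3a, featureCounts, edgeR and the mm10 build, and counting details are not given in the sources used here. The deposited table holds a normalized signal, CPM scaled between libraries by the authors, as its values show: every value was a whole multiple, within 0.0006, of what 1 read is worth, so whole reads were recovered for 100% of values. Column sums ran from 955838 to 1083568. All 6 columns were used and 0 were left out.

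Genes at 1 scaled CPM or more in 2 libraries (13648 of 13706, with all 48 members) were fitted on log2(value + 1) with limma 3.58.1 in R 4.3.3, trended prior, 1 factor of 3 groups, 3 residual degrees of freedom, and Benjamini-Hochberg adjustment over all genes. The plan had been written for plain CPM and was kept. Alternatives were edgeR 4.0.16 and DESeq2 1.42.0 on recovered reads, other pseudocounts, filters, scalings and variance models, a replicate block, and leaving out each library. The fit was also run on simulated counts with few changed genes, balanced in direction. That run does not cover the dependence on scaling seen here. Moderation across genes raised the degrees of freedom behind the limma p-values and intervals to 15.7. Intervals cover the spread between these libraries only.

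Members and lists were chosen with earlier results of these data known. Genes named were the immune members, their constitutive counterparts, the remaining activators and chaperones, the largest called changes, the most abundant genes of each family, and a few genes of each list. Genes that overlap neighbours, Psme2b and Psmc3ip were named in addition, after their values were seen. Positions are from GENCODE M21 and start windows from RefSeq. Some list genes are not reported here.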

Additional observations from a re-analysis of the deposited data

How the results depend on the processing

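The calls of the 5 immune genes in knockout against control and in H-151 against knockout held under every alternative. Of 2444 recomputed changes of single genes, 2289 kept their side of the threshold, 109 lost a call, 44 gained one and 2 reversed. Among the 2289, 135 were changes called in neither fit whose sign differed. In H-151 against knockout, quantile normalization turned Psmc2 to 0.18 and Psmd8 to 0.0419.

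The counts of other rows moved more, and the cause was not tested. In knockout against control 10 were higher and 1 lower. Total-count scaling gave 3 and 11, quantile normalization 3 and 8, and no trend in the prior variance 5 and 0. Leaving out 1 library gave 4 to 7 higher and 0 to 1 lower, and fitting only the 2 groups compared gave 2 lower. In H-151 against knockout 0 were higher and 15 lower. Total-count scaling gave 6 and 6, quantile normalization 4 and 6, no trend 9 lower, and leaving out 1 library 0 to 2 higher and 10 to 14 lower. With total-count scaling, 29.9% of calls over all genes were higher in knockout against control, compared with 56.2% as deposited and 39.1% with quantile normalization. In H-151 against knockout these were 71.2%, 47.5% and 61.9%. In knockout against control, all tested genes gave 1726 higher and 4053 lower with total-count scaling. Quantile normalization gave 1914 and 2987, and no trend 2014 and 1607. In H-151 against knockout the same settings gave 4767 and 1930, 3546 and 2179, and 2307 and 2371.

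In H-151 against control the 2 immune calls became 0 with only the 2 groups compared, 0 without the trend, 1 with DESeq2 and 0 to 2 without 1 library. The 2 other rows called lower became 0 without the trend and 0 to 4 without 1 library, and 0 to 1 were then higher. The change of the log2 ratio of Psme1 to Psme3 ran from -0.101 to 0.0926 without 1 library, and that of Psme2 to Psme3 from -0.474 to 0.111.

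Labels number the libraries of each group 1 and 2. Over 9030 genes, deviations of same-numbered libraries correlated at -0.14 between control and knockout and -0.24 between knockout and H-151. Between control and H-151 the correlation was 0.23. Whether libraries of different groups shared a batch was not tested. With the replicate block, 10 other rows were higher and 1 lower in knockout against control, and 0 and 15 in H-151 against knockout. A block with the knockout numbers crossed, chosen after seeing the data, gave 12 and 2 in the first comparison. Over all tested genes it gave 2891 higher and 2431 lower there, against 2483 and 1938 in the main fit. In H-151 against knockout it gave 3055 and 3314, against 2643 and 2923. A group left with 1 library was assumed to vary like the others. Psme2b, at 11 to 85 reads, is the member most limited by depth.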
